A study of Mus musculus with 6 samples.

Results

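The genes described here encode 10 enzymes of fatty acid synthesis, elongation, desaturation and activation: *Acly*, *Acaca*, *Fasn*, *Scd1*, *Scd2*, *Elovl5*, *Elovl6*, *Fads1*, *Fads2* and *Acsl4*. They were taken by symbol from a table of 26656 genes. They were chosen by this shared function with results of the comparison of CTR and NPM1 KD already known, so their differences between these conditions are given as a description. All 10 were found in the table and 9 passed the filter on low values, *Scd1* being the gene that did not.

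RNA was sequenced from N2a cells, a mouse neuroblastoma cell line, 72 h after transfection of a plasmid coding for a short hairpin RNA. The aim was to ask how a lower level of NPM1, a nucleolar histone chaperone that also acts on chromatin, affects the transcriptome. The CTR group (3 libraries) received pLKO.1-shCTR, which holds the Non Target #3 hairpin, and the NPM1 KD group (3 libraries) received pLKO.1-shNpm1, which holds TRCN0000115430. Both groups had the genotype labelled WT and 3 days in vitro, and puromycin from 24 h onwards is stated for the knockdown experiments, without saying whether CTR cells received it. Each group rests on 1 hairpin sequence in 1 cell line. The descriptions give 3 biological replicates in the design and 2 in the treatment protocol, so the spread between libraries may be partly technical.

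The values are regularized logarithms (rlog), a log2 scale on which the authors normalized for library size and drew genes with few reads towards their mean. The deposited values are rounded to whole numbers, except those between −1 and 1. A printed difference between group means can therefore differ by up to 1 from the difference before rounding. *Npm1*, the target of the hairpin (ENSMUSG00000057113), was at 10, 10 and 10 in CTR and at 8, 8 and 8 in NPM1 KD, a difference of −2 ± 0.33 (SE of the fit, n = 3 per group, limma adjusted p = 3.23e-06). Genes of the same mean rlog had the same SE in this fit. The SE and p-values given here therefore do not measure a gene's own spread between libraries. The libraries of the groups also differed in relative depth, with 1.24, 1.30 and 1.11 for the CTR libraries. Those of NPM1 KD were at 0.784, 0.833 and 0.961. All NPM1 KD libraries were thus shallower than all CTR libraries, and the part of this in the results below was not tested.

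Of the 12 markers fixed for neuroblastoma cells and neurons, 4 passed the filter, and their summed rlog per library over all 12 ranged from 38.3 to 40.4 in CTR and from 37.4 to 37.5 in NPM1 KD. *Stmn2*, a tubulin-binding protein of neurons, was at 9 in each CTR library and at 8 in each NPM1 KD library. *Tubb3*, the neuronal beta tubulin, was at 8 and at 7 (both differences −1, limma adjusted p = 0.0791). *Hand2*, a transcription factor of sympathetic neurons, had a difference of 0.33 (limma adjusted p = 0.713), and the neurofilament genes *Nefl* and *Nefm* were listed at 0 in every library. No marker of fibroblasts, astrocytes, microglia, adipocytes or hepatocytes passed the filter, and the adipocyte genes *Adipoq* and *Plin1* and the hepatocyte genes *Alb* and *Apoa1* were listed at 0 in every library. The part of the lower *Stmn2* and *Tubb3* values in the results below was not tested.

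Fatty acids are built in the cytosol from acetyl-CoA. Citrate that leaves the mitochondria is cleaved to acetyl-CoA, which is carboxylated to malonyl-CoA and then joined, unit by unit, into palmitate by fatty acid synthase. In the endoplasmic reticulum the chain is lengthened by elongases and given double bonds by desaturases, and acyl-CoA synthetases activate fatty acids for these steps and for storage in lipids. Many genes of the pathway are known targets of the SREBP transcription factors, which also act on cholesterol synthesis. Neuronal and glial cells use the pathway to make membranes.

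Of the 9 enzymes tested, 1 (*Scd2*) was called lower in NPM1 KD and 0 were called higher. Over all 5752 genes tested, 24 (0.417%) were called lower and 4 (0.0695%) higher. The group mean was lower in NPM1 KD for 6 of the 9, equal for 3 and higher for 0, where 27.4% of all genes tested had a lower mean. Only *Scd2* among the 9 had all NPM1 KD values below all CTR values, against 3.41% of all genes tested. Because the enzymes were chosen with this comparison known, nothing is read from these counts. The median log2 difference was −0.33 over the 9 enzymes and 0 over all genes tested. In these bulk libraries, fewer cells that express a gene and less of its RNA per cell cannot be told apart.

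**Figure D1:**
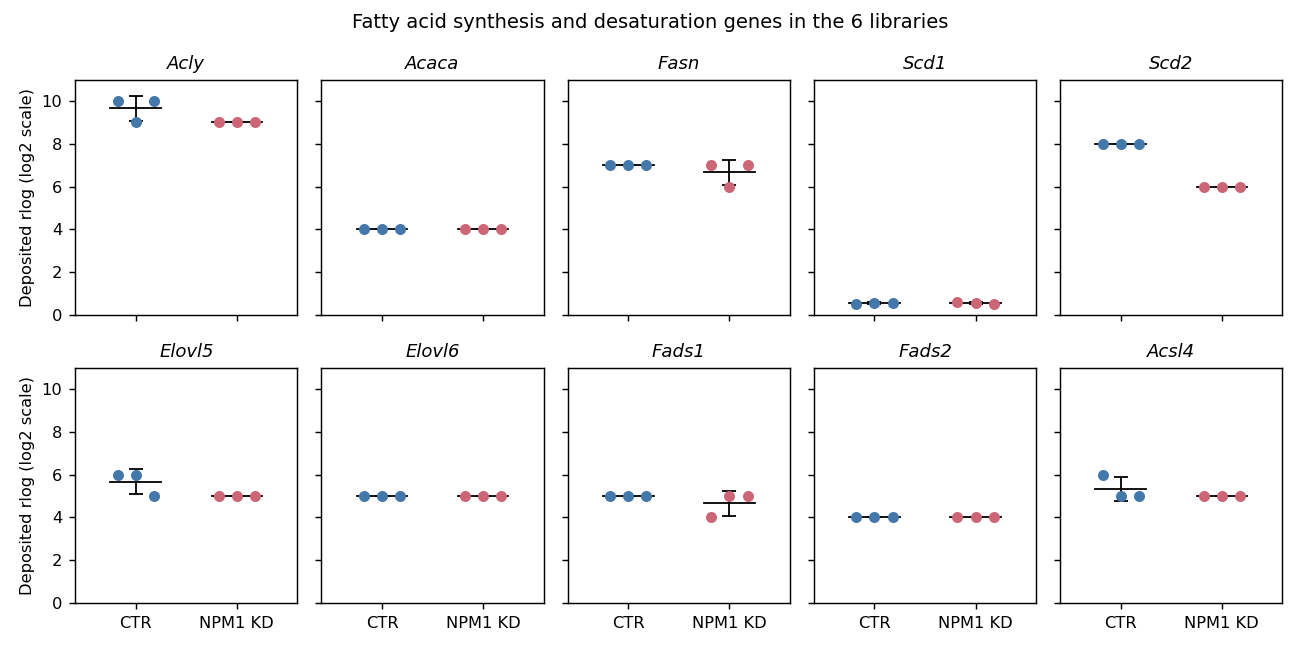
Each panel plots the deposited rlog value of 1 gene (y axis, log2 scale) in the 3 CTR and the 3 NPM1 KD libraries (points), with the group mean (line) and SD (error bar). *Scd2* is the only gene whose groups do not overlap, at 8 in CTR and 6 in NPM1 KD, and *Scd1* lies between 0.495 and 0.618 in all libraries.

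*Acly* (ENSMUSG00000020917) encodes ATP citrate lyase, which cleaves cytosolic citrate to acetyl-CoA and so supplies the carbon of the pathway. Its rlog was 10, 9 and 10 in CTR, while each NPM1 KD library was at 9. The groups overlapped at 9, where CTR replicate 2 stood with all NPM1 KD libraries. The means were 9.67 ± 0.58 in CTR and 9 ± 0 in NPM1 KD (SD, n = 3), a difference of −0.67 ± 0.33 (SE). It did not pass the threshold (limma adjusted p = 0.33), and the difference before rounding lies between −1.67 and 0.33. The authors' mean normalized count of *Acly* was 675.

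The 250 bases before the start site of *Acly*, from RefSeq at chr11:100528001-100528250 (GRCm38.p6, minus strand), are shown because the gene opens the pathway, with GC boxes (GGGCGG on either strand) in capitals.
Acly: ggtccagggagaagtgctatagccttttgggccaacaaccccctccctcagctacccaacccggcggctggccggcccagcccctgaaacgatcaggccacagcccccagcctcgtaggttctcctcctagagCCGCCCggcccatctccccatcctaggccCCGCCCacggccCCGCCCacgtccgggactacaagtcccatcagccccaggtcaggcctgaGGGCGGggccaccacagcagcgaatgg
The stretch holds 4 GC boxes, which start 117, 88, 76 and 27 bases before the start site. Of 32851 promoter stretches of this length, 32.74% hold at least 1.

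*Acaca* (ENSMUSG00000020532) encodes acetyl-CoA carboxylase 1, which makes malonyl-CoA and is the committed step of synthesis. It was at 4 in all 6 libraries, with an authors' mean normalized count of 18.2. The difference was 0 ± 0.35 (SE), and rounding leaves a difference between −1 and 1 open. *Acacb*, the mitochondrial isoform, named here as its paralogue and not by the rule for named genes, had 4 reads in CTR and 4 in NPM1 KD. Its ratio per relative depth was 1.42, with a 95% exact interval from 0.264 to 7.62 that covers counting error only.

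*Fasn* (ENSMUSG00000025153) encodes fatty acid synthase, the multienzyme that builds palmitate from malonyl-CoA. It was at 7, 7 and 7 in CTR and at 7, 6 and 7 in NPM1 KD. Only NPM1 KD replicate 2 was below the rest, so the groups overlapped. The difference was −0.33 ± 0.35 (SE, limma adjusted p = 0.713), with a range from −1.33 to 0.67 before rounding and an authors' mean normalized count of 123.

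The 250 bases before the start site of *Fasn* (RefSeq, chr11:120824548-120824797, GRCm38.p6, minus strand) are shown as the promoter of the central enzyme, with the CCAAT motif bound by NF-Y in capitals on either strand.
Fasn: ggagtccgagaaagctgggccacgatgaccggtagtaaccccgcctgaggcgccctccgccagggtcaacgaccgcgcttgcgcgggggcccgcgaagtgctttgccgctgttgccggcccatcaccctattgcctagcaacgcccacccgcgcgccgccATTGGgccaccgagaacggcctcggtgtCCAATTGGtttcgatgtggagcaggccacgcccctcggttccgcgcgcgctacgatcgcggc
It holds 3 matches, which start 90, 62 and 59 bases before the start site, and the last pair overlap in CCAATTGG. Of all stretches of this length, 33.85% hold at least 1 match.

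The largest difference of the 10 genes was that of *Scd2* (ENSMUSG00000025203), a stearoyl-CoA desaturase that puts the first double bond into saturated fatty acids and is the main isoform of brain. It was at 8, 8 and 8 in CTR and at 6, 6 and 6 in NPM1 KD. All NPM1 KD libraries stood below all CTR libraries, with no spread within either group at this rounding. The difference of −2 ± 0.35 (SE of the fit, n = 3 per group) corresponds, on this shrunken log2 scale, to a level in NPM1 KD of 0.25 times that in CTR. This SE follows from the mean rlog and not from the replicates of *Scd2*. *Acaca*, with an SD of 0 in each group, and *Pcyt2*, with an SD of 0.58 in each group, both had an SE of 0.349. Rounding leaves a difference between −3 and −1 open, which does not include 0. In the fit over all genes the limma adjusted p was 9.49e-06, given as a description because the gene was chosen with this result known. The authors' mean normalized count was 156. When each library was left out in turn, *Scd2* was called each time. The difference stayed at −2, which was fixed in advance because the rounded values are equal within each group. Leaving out libraries therefore cannot show how stable this difference is. The call was lost with random draws of the unrounded values, where the difference was −2.05 and the limma adjusted p was 0.983.

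*Scd1* (ENSMUSG00000037071), the isoform that prevails in liver and fat, was near the floor of these data. Its rlog values were 0.495, 0.554 and 0.573 in CTR, against 0.618, 0.530 and 0.517 in NPM1 KD, too low for the test. They overlapped, with the highest value in NPM1 KD and the lowest in CTR. Its mean normalized count corresponded to whole reads in only 1 way, namely 1, 2 and 2 reads in CTR against 2, 1 and 1 in NPM1 KD. The ratio of 4 to 5 reads, per relative depth, was 1.14 with a 95% exact interval from 0.225 to 5.28. This interval includes 0.25, close to its lower end, so these reads do not exclude a difference of the size measured for *Scd2*.

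*Scd1* and *Scd2* are close paralogues, so the sequences that keep their reads apart matter for both values. The coding sequences of *Scd2* (1077 bases) and *Scd1* (1068 bases), taken from GENCODE vM21 transcripts, are identical at 89.6% of 1077 aligned positions, and 112 positions differ. The longest identical run is 147 bases. The first stretch of 90 bases that aligns without a gap, bases 84 to 173 of *Scd2* and 75 to 164 of *Scd1* counted from the start codon, is shown as the part where the genes are easily told apart, with the 30 differing bases in capitals.
Scd2: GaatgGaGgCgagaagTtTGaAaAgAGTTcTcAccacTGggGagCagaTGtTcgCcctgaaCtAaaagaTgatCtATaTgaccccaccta
Scd1: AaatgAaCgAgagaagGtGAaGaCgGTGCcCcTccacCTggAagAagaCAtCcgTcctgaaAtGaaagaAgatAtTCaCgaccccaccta
The untranslated parts of the transcripts were not compared, so the coding identity does not show how easily whole reads are told apart. How reads that align to both genes were counted is not given in the sources used here, so the split between them is uncertain. Of the further desaturases of the family, named as paralogues and not by the rule, *Scd3* was at 2 in all 6 libraries. *Scd4* had 1 read, in CTR replicate 2.

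*Fads1* (ENSMUSG00000010663) and *Fads2* (ENSMUSG00000024665) encode the delta-5 and delta-6 desaturases, which act in the synthesis of long polyunsaturated fatty acids from dietary precursors. *Fads1* was at 5, 5 and 5 in CTR and at 4, 5 and 5 in NPM1 KD. Only NPM1 KD replicate 1 was lower, so the groups overlapped. The difference was −0.33 (limma adjusted p = 0.713), between −1.33 and 0.67 before rounding. *Fads2* was at 4 in all 6 libraries, a difference of 0 that may lie between −1 and 1 before rounding. Their authors' mean normalized counts were 28.5 and 13.2. The paralogue *Fads3*, again named outside the rule, was at 4, 4 and 4 in CTR and at 3, 4 and 4 in NPM1 KD.

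*Elovl5* (ENSMUSG00000032349), an elongase of polyunsaturated fatty acids, was at 6, 6 and 5 in CTR and at 5, 5 and 5 in NPM1 KD. CTR replicate 3 shared the value of all NPM1 KD libraries. The means were 5.67 ± 0.58 and 5 ± 0 (SD, n = 3), and the difference of −0.67 ± 0.33 (SE) did not pass the threshold (limma adjusted p = 0.33). Before rounding it lies between −1.67 and 0.33. The authors' mean normalized count was 39.1.

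The 250 bases before the start site of *Elovl5* (RefSeq, chr9:77917115-77917364, GRCm38.p6, plus strand) are shown because it alone among the promoters read held an E-box (CACGTG), with that motif and the CCAAT motif in capitals.
Elovl5: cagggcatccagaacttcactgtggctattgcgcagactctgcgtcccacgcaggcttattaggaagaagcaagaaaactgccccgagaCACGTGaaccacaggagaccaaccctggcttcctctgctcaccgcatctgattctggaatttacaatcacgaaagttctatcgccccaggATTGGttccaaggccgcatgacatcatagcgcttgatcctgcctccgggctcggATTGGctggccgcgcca
The E-box starts 161 bases before the start site and the CCAAT matches, both as ATTGG, start 71 and 17 bases before it. An E-box occurs in 6.02% of all stretches of this length.

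*Elovl6* (ENSMUSG00000041220), which lengthens palmitate to stearate, the substrate of the stearoyl-CoA desaturases, was at 5 in all 6 libraries. Its difference was 0, between −1 and 1 before rounding, with an authors' mean normalized count of 31.8. *Acsl4* (ENSMUSG00000031278) encodes an acyl-CoA synthetase that prefers arachidonate. It was at 6, 5 and 5 in CTR and at 5, 5 and 5 in NPM1 KD. Only CTR replicate 1 was higher, and the difference was −0.33 (limma adjusted p = 0.713), between −1.33 and 0.67 before rounding. The authors' mean normalized count of *Acsl4* was 37.7.

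**Figure D2:**
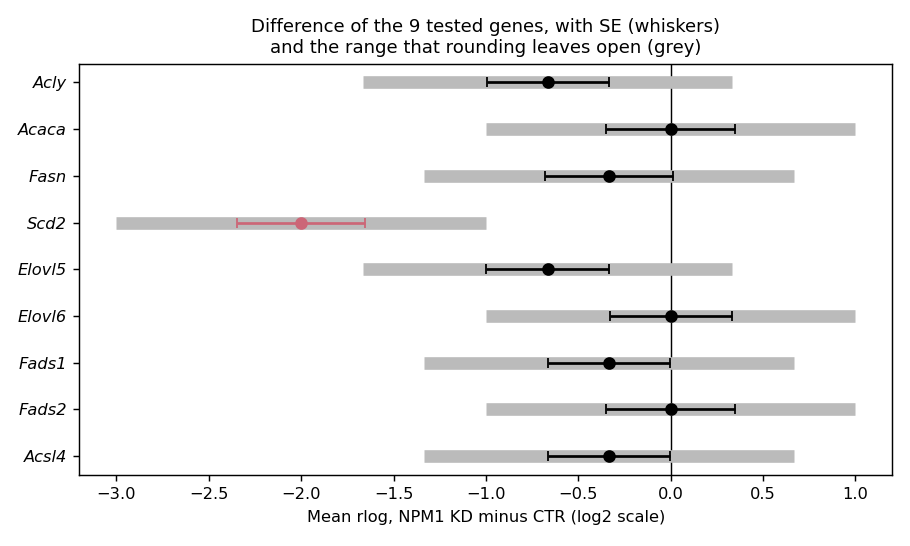
The x axis gives the mean rlog of NPM1 KD minus that of CTR (log2 scale) for the 9 genes tested, as points with the SE of the fit, and grey bars give the range of the difference before rounding. *Scd2*, in red as the gene called, is the only gene whose grey bar, from −3 to −1, does not include 0.

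RefSeq promoters were found for 7 of the 10 genes, all but *Scd1*, *Scd2* and *Fads1*. Among these 7, a GC box was present in 3, the CCAAT motif in 2, the E-box in 1 and the SRE-like motif TCACNCCAC in 0, both strands being searched. The SRE-like motif occurs in 1.05% of all stretches of this length. These letter matches are a description of the sequence and say nothing of whether a factor binds.

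For the 9 genes, rounding to whole log2 steps can hide a spread between replicates of less than 1 step. Where replicates of a group differed, they did so by 1 step, in CTR for *Acly*, *Elovl5* and *Acsl4* and in NPM1 KD for *Fasn* and *Fads1*. CTR replicate 1 held or shared the highest value in each of *Acly*, *Elovl5* and *Acsl4*. No NPM1 KD library exceeded the lowest CTR value of any of the 9 genes. The summed rlog of the 10 genes ranged from 53.6 to 55.5 in CTR and from 49.5 to 50.5 in NPM1 KD, and *Scd2* alone made up 2 of the difference between the groups.

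The genes whose pattern was most like that of *Scd2* were found among 5751 genes by the Euclidean distance over the 6 libraries after each gene was centred on its own mean. At a distance of 0 stood 2 genes, *Npm1* and *Ier3*, an immediate early response gene that was at 6 in each CTR library and at 4 in each NPM1 KD library. The distances rest on rounded values, so a distance of 0 does not mean equal patterns before rounding. The differences of *Scd2*, *Npm1* and *Ier3* may each lie between −3 and −1 before rounding. At 0.913 stood *Chgb*, a secretory granule protein, *Myadm*, a membrane protein, *Aldoc*, a glycolytic aldolase, and *Fn1*, fibronectin. *Aldoc* was at 7, 6 and 6 in CTR and at 4, 4 and 4 in NPM1 KD. *Ldha*, lactate dehydrogenase A, and *Fbxl20*, a subunit of a ubiquitin ligase, followed at 1.15, a distance that 16 genes shared, and were named for their higher mean rlog. *Idi1*, *Fdps* and *Lpin1*, lipid genes described below, were among these 16. None of the other 9 enzymes was among these 8 genes.

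The steps around the enzymes were described by lists chosen for this purpose with earlier results of these data known. Of 7 genes tested of acetyl-CoA and NADPH supply, 0 were called in either direction. *Slc25a1*, the mitochondrial citrate carrier that delivers the substrate of *Acly*, was at 6, 6 and 6 in CTR and at 5, 5 and 5 in NPM1 KD, a difference of −1 that did not pass the threshold (limma adjusted p = 0.0791). Of the genes around acetyl-CoA carboxylation, 3 were tested and all had equal means in both groups. A further list held other elongases and desaturases together with proteins that work with them, such as *Tecr*, *Hsd17b12* and *Cyb5r3*. Of 12 genes tested of this list, 0 were called, with 5 lower, 5 equal and 2 higher means. Of 4 genes tested of mitochondrial fatty acid synthesis, a separate pathway, 0 were called and the median difference was −0.17.

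Among the genes that use the products, 10 acyl-CoA synthetases, thioesterases and binding proteins were tested and 0 were called. The transporters of this list, *Slc27a1* and *Slc27a4*, did not pass the filter. *Dbi*, the acyl-CoA binding protein, was at 8 in each CTR library and at 7 in each NPM1 KD library (limma adjusted p = 0.0791). Of 12 genes tested of glycerolipid and phospholipid assembly, 1 was called lower, against 0.417% of all genes tested. This was *Pcyt2*, which makes CDP-ethanolamine for phosphatidylethanolamine, at 5, 5 and 4 in CTR against 3, 3 and 4 in NPM1 KD. Its difference was −1.33 (limma adjusted p = 0.0273), although the groups shared the value of 4. The call was lost without CTR replicate 1 or 2 or NPM1 KD replicate 1 or 2 (difference −1.17 in each case, limma adjusted p = 0.243, 0.244, 0.179 and 0.195). *Lpin1*, a phosphatidate phosphatase, was at 5, 4 and 4 against 3, 3 and 3 and did not pass the threshold (limma adjusted p = 0.071). Of 18 genes tested of beta-oxidation, which breaks fatty acids down, 0 were called. *Cpt1c*, a neuronal carnitine palmitoyltransferase, was 1 step lower (limma adjusted p = 0.166) and *Hadha*, a subunit of the mitochondrial trifunctional protein, 1 step higher in NPM1 KD (limma adjusted p = 0.0791), both without overlap.

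**Figure D3:**
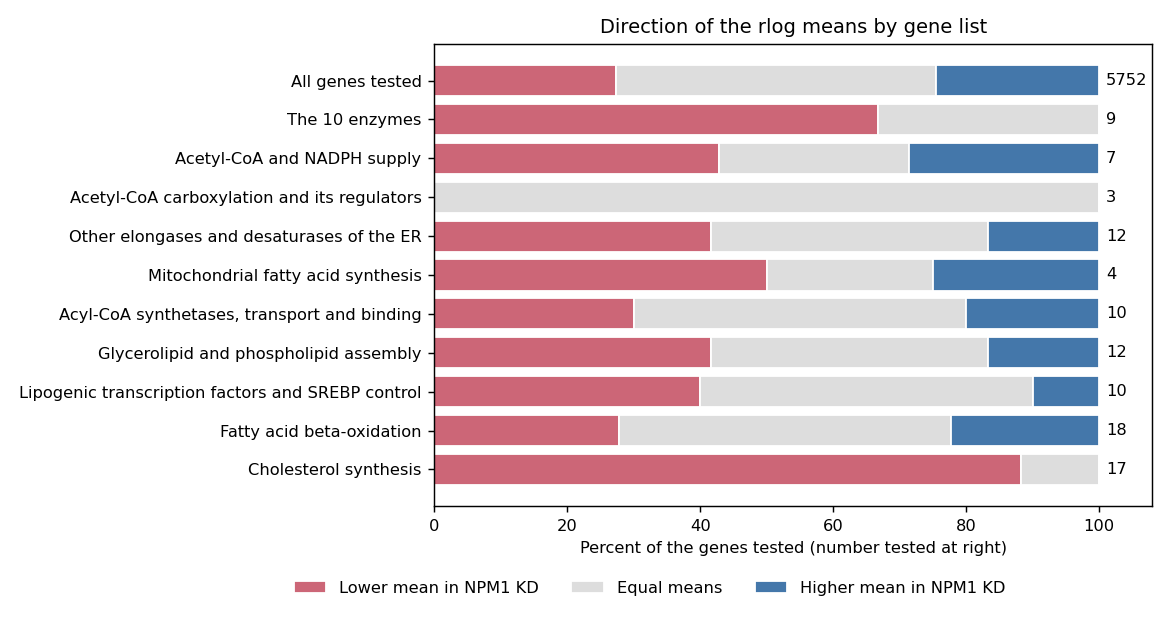
Stacked bars give the percent of genes tested (x axis) with a lower, equal or higher mean rlog in NPM1 KD for all genes tested, for the enzymes and for each list, with the number tested at the right. Lower means make up 66.7% of the enzymes and 88.2% of the cholesterol synthesis genes, against 27.4% of all genes tested. The enzymes and lists were chosen with earlier results of these data known.

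Of 10 transcription factors and SREBP control genes tested, 0 were called. *Srebf1*, which encodes the SREBP-1 factors of lipogenesis, was at 6, 6 and 6 in CTR and at 5, 5 and 5 in NPM1 KD. *Insig1*, which retains SREBPs in the endoplasmic reticulum and is itself a target of them, had the same values (both −1, limma adjusted p = 0.0791). *Nr1h3*, the sterol sensor LXR alpha, was at 3, 3 and 3 in CTR and at 4, 4 and 4 in NPM1 KD (limma adjusted p = 0.166). *Srebf2* and *Scap*, named outside the rule as the partner factor and its escort protein, were at 6, 6 and 6 against 5, 6 and 6 and at 4 in all libraries.

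The list of cholesterol synthesis, which shares SREBP control with the enzymes, had 2 of 17 genes tested called lower and 0 called higher, against 0.417% and 0.0695% of all genes tested. These were *Idi1*, isopentenyl diphosphate isomerase, at 6, 5 and 5 against 4, 4 and 4, and *Fdps*, farnesyl diphosphate synthase, at 7, 8 and 7 against 6, 6 and 6 (both −1.33, limma adjusted p = 0.026). The mean was lower in 15 of the 17, where 27.4% of all genes tested had a lower mean. All NPM1 KD values were below all CTR values for 7 of the 17, against 3.41% of all genes tested. Because the lists were chosen with earlier results of these data known, nothing is read from these counts. The median difference was −1, beside −0.33 for the 9 enzymes, and this difference between the lists was not tested. With any 1 of the 6 libraries left out, 0 of the cholesterol synthesis genes were called, and 5 to 9 genes over the whole table were called lower in place of 24.

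**Figure D4:**
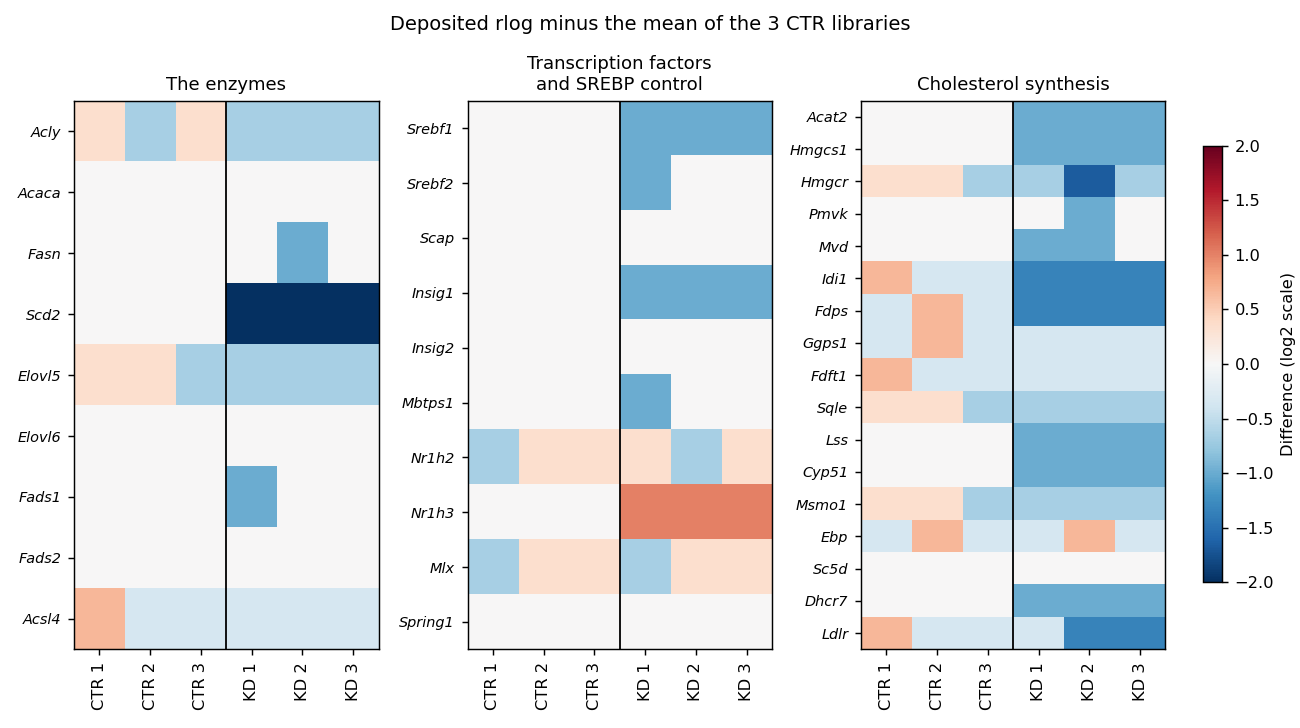
Color gives the rlog of each tested gene minus the mean of the 3 CTR libraries (log2 scale), with genes in rows, the 6 libraries in columns and a line between the groups. In the NPM1 KD columns *Scd2* is 2 steps below CTR in all 3 libraries and *Srebf1* and *Insig1* are 1 step below, while *Acaca*, *Elovl6* and *Fads2* have no difference in any library.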

How the data were processed

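RNA from 6 N2a libraries (3 CTR, 3 NPM1 KD) was turned into barcoded cDNA by PCR and read on a GridION (Oxford Nanopore). The submitters' processing notes name minimap2, featureCounts, DESeq2 and GRCm39, without versions or parameters. The authors deposited rlog scores for each library, which are log2 values rounded to whole numbers except between −1 and 1, and their mean normalized count of each gene. The fold changes and p-values of the authors' own comparison were not used. The paper does not describe this experiment.

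Of 26913 rows, 257 repeated an identifier and were merged, which left 26656 genes. The filter kept 5752 genes, those whose mean rlog reached log2 of 10. A linear model with moderated variances and an intensity trend was fitted to them (limma 3.58.1, R 4.3.3), and tests were two-sided. Variances within groups below 0.0833, which rounding alone adds, were raised to that value. In the main fit genes of the same mean rlog ended with the same SE. Its SE and p-values thus rest on a variance shared between genes and not on each gene's own spread. P-values were adjusted by Benjamini-Hochberg over the genes tested, with a threshold of 0.05. The fit was tested on simulated data in which all genes of a run had the same spread and the changed genes differed by at least as much as *Scd2*. It was not tested on smaller differences, such as those of *Pcyt2*, *Idi1* and *Fdps*, or on spreads that vary by gene. Both rounding and depth limit what a library can show. No column of values was left unassigned.

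Total reads were not used. Relative depths were solved from the mean normalized counts of 3552 genes with few reads, each of which gave whole reads in only 1 way (tolerance 5e-09), and were assigned to libraries by the order of 720 with the best mean correlation (0.998, next best 0.651). Intervals cover counting error only.

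The enzymes, lists and rules were chosen with earlier results of these data known. Named were the 10 enzymes, *Npm1*, the called genes of each list (with fewer than 2 called, also up to 4 genes without overlap between groups), and 8 genes most like *Scd2* (ties broken by the higher mean rlog). Genes named outside this rule were chosen after their values were seen. Promoters were read from RefSeq (GRCm38.p6) and coding sequences from GENCODE vM21. Both are of another build than the data and were used by symbol. Some marker genes are not reported here by name.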

Additional observations from a re-analysis of the deposited data

How the results depend on the processing

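The difference of *Scd2* stayed between −2.05 and −1.98 in 14 alternatives and was called in 13, with a limma adjusted p from 1.01e-11 to 0.983, and 0 enzymes were called higher in any. Only the draws and the centring of libraries could move this difference, because its rounded values are equal within each group. The narrow range is therefore no measure of stability. Genes called lower and higher over the whole table were 178 and 123 without the allowance for rounding, 218 and 132 without the intensity trend, 5 and 0 with variances raised to 0.25, 10 and 1 with no filter on low values (14776 genes), and 0 and 0 with 20 draws of the unrounded values, where 0 enzymes were called and 282 genes had an unadjusted p under 0.05. The draws also ended the call of *Npm1* itself (limma adjusted p = 0.983), which was called in the other 13. An unadjusted limma p under 0.05 was found for 350 genes with variances raised to 0.25, and for 813 of 5752 in the main fit. Leaving out 1 library at a time gave 5 to 9 genes lower and 0 to 2 higher, with 1 enzyme called lower each time, and a median of the enzymes from −0.5 to −0.33. The stricter filter (mean rlog of at least 5) moved that median to −0.5 because fewer enzymes were tested. Centring each library on its mean changed none of these calls. *Pcyt2*, *Idi1* and *Fdps* lost their calls with 0.25, with the draws, with no filter and with the replicate block, and without the allowance as well. The cholesterol synthesis genes called were 5 without the allowance and 9 without the trend. The replicate block gave 7 genes lower and 1 higher and 1 enzyme lower. Replicates of the same number did not deviate together (correlations of 0.0089, 0.0013 and 0.030), so the numbers were not taken to pair the samples. *Slc25a1*, *Dbi*, *Srebf1*, *Insig1*, *Nr1h3*, *Cpt1c* and *Hadha* were called in 2 alternatives each, those without the allowance and without the trend. *Stmn2* and *Tubb3* were called in the same 2, and *Lpin1* without the trend. None of the named genes that were called changed sign under the alternatives run. The cause of these shifts was not tested.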
